A study of Homo sapiens with 9 samples.

Results

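The zinc finger genes of the chromosome 19p12 cluster were followed in H2009 lung adenocarcinoma cells whose 14q32 microRNAs had been raised by CRISPR activation. The cluster was described as a list of 33 ZNF genes running from ZNF14 and ZNF101 to ZNF254 along the chromosome. The genes were listed by position, and the cluster was selected on earlier results of these arrays, from the same sgRNA-A, sgRNA-B and control levels. Counts and medians over its members are therefore descriptions with no test of their own. A probe set was present for 32 of the 33 genes, among 23931 genes tested. ZNF66 was the member without one. Of the 33 genes, 32 are annotated as protein coding, and ZNF826P as a transcribed pseudogene.

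KRAB zinc finger proteins read DNA through arrays of zinc fingers, and their KRAB domain recruits the co-repressor TRIM28 and the histone methyltransferase SETDB1. They are best known for silencing retroelements, and many arose by gene duplication in primates, which left runs of related genes such as the one on 19p12. ZNF91 is known to repress SVA elements and ZNF93 to repress a group of LINE-1 elements.

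The arrays fell into 3 groups of 3: the sgRNA-A clone, the sgRNA-B clone and control cells that had received the guide vector with no guide. All 3 groups carried dCas9 joined to the activators VP64, p65 and Rta, and all were kept in blasticidin. Each guide is represented by 1 clone, so an effect of a guide and a property of its clone cannot be told apart. Every value is an average over the cells of a culture, so fewer expressing cells and less RNA per cell cannot be told apart either. The labels name the arrays as biological replicates of each clone, and their number limits how precise any value can be.

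The arrays correlated closely. Correlations across genes lay between 0.997 and 0.998 for arrays of a group, and between 0.996 and 0.998 for arrays of different groups. Values are log2 intensities, and a level of 4.44, the 95th percentile over 355 olfactory receptor genes, was taken as the silent level. Of 10 epithelial and lung adenocarcinoma markers, 8 lay above it, while the lung markers NAPSA and SFTPB did not. Of 11 measured markers of other cell types, COL1A1 and GFAP lay above it. The mean of the other-cell markers was 4.17 to 4.20 on sgRNA-A arrays, 4.15 to 4.18 on sgRNA-B arrays and 4.18 to 4.20 on control arrays. The keratin KRT7 was the epithelial marker that changed with sgRNA-A, by -0.18 (SE 0.04, adjusted p = 0.0170). Of 6 measured 14q32 genes, 1 lay above the silent level. None of the 6 passed the limma test in any comparison, and against control none reached an unadjusted p below 0.05 with either guide. The microRNAs themselves were not analysed here.

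Members of the cluster share words in their promoters as well as their place. RefSeq's promoter table for GRCh38.p14 held an entry, from 250 bases before to 50 bases after the start site, for 26 of the 33 members. The members without one were ZNF506, ZNF253, ZNF826P, ZNF738, ZNF676, ZNF98 and ZNF99. The 4 promoters shown belong to the members on which the results turn: ZNF714 (chr19:21081953-21082252, plus strand), ZNF431 (chr19:21141790-21142089, plus strand), ZNF91 (chr19:23395422-23395721, minus strand) and ZNF14 (chr19:19733063-19733362, minus strand). They are written 5′ to 3′ on the strand of the gene, and capitals mark the words TCCAATCAGG and CTGTCACTCA.
ZNF714: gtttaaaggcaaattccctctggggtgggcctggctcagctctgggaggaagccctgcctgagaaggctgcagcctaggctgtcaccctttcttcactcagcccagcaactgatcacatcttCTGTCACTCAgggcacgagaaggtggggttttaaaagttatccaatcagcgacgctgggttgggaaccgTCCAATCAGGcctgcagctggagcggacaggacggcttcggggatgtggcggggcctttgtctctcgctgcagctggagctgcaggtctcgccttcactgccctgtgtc
ZNF431: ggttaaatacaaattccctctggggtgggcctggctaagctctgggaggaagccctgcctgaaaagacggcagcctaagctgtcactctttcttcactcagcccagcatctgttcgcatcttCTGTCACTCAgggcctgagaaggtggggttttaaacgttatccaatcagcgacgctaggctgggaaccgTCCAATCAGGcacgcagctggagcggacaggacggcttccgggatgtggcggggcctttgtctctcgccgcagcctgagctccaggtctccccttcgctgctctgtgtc
ZNF91: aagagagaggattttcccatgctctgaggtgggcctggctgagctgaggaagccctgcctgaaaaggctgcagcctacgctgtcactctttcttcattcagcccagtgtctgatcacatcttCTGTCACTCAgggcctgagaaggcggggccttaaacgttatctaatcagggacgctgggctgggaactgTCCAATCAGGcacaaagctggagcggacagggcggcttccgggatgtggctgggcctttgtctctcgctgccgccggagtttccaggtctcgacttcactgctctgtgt
ZNF14: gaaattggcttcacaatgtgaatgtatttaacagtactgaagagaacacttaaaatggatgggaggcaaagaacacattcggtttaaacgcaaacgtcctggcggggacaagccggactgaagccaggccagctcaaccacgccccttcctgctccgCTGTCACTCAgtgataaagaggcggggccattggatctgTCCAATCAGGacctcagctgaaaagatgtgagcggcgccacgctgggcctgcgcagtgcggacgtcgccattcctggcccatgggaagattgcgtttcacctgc

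The word TCCAATCAGG, which holds the CCAAT box known as a binding sequence of the factor NF-Y, occurred for 24 of the 26 members (92.3%). It occurred for 117 of all 27305 genes in the table (0.428%). A gene was counted if any of its listed promoters held the word. ZNF493 and ZNF257 were the members that lacked it. The word CTGTCACTCA occurred for 21 of the 26 (80.8%) and for 114 of all genes (0.418%). Both words occurred for 19 of the 26 (73.1%) and for 38 of all genes (0.139%). ZNF682 has a further listed promoter (chr19:20039206-20039505) that holds neither word. The shorter CCAAT alone was found for all 26 members and for 39.7% of all genes. Both strands were searched, and the CCAAT count includes the longer word that contains it. The 10-letter words were chosen because they were the most frequent among these 26 members, so the counts describe the cluster and test nothing.

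The words also lay at similar positions. All 24 copies of TCCAATCAGG and all 21 of CTGTCACTCA counted at the first occurrence lay on the strand of the gene. Counted from the start site, the first base of TCCAATCAGG lay at -88 to -30, with a median of -58, and that of CTGTCACTCA at -130 to -69, with a median of -125. ZNF93, ZNF737, ZNF626, ZNF43, ZNF208 and ZNF675 hold 2 copies of TCCAATCAGG. Their first copies, at -85, -87, -87, -88, -82 and -53, enter these values and their second copies do not. In ZNF714, ZNF431 and ZNF91 alike, they began at -59 and -128. In ZNF14, at the other end of the cluster, the words began at -54 and -93. The longest run of letters shared with the closest member ranged from 13 bases for ZNF14 to 46, with a median of 38.5 of the 300 bases. Members had a median of 10 CpG pairs in the first listed window (range 8 to 18), against 14 over all genes (range 0 to 77).

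Of the 32 measured members, 30 lay above the silent level when averaged over the 9 arrays. ZNF708, at a mean of 4.19, and ZNF99, at a mean of 3.74, did not. Replicates of the members varied more than those of most genes: the median within-group SD was 0.164 over the members, against 0.0852 over all genes tested. It ranged among members from 0.0394 for ZNF101 to 0.364 for ZNF726. Members are related in sequence, and whether their probes read more than 1 of them was not tested.

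**Figure D1:**
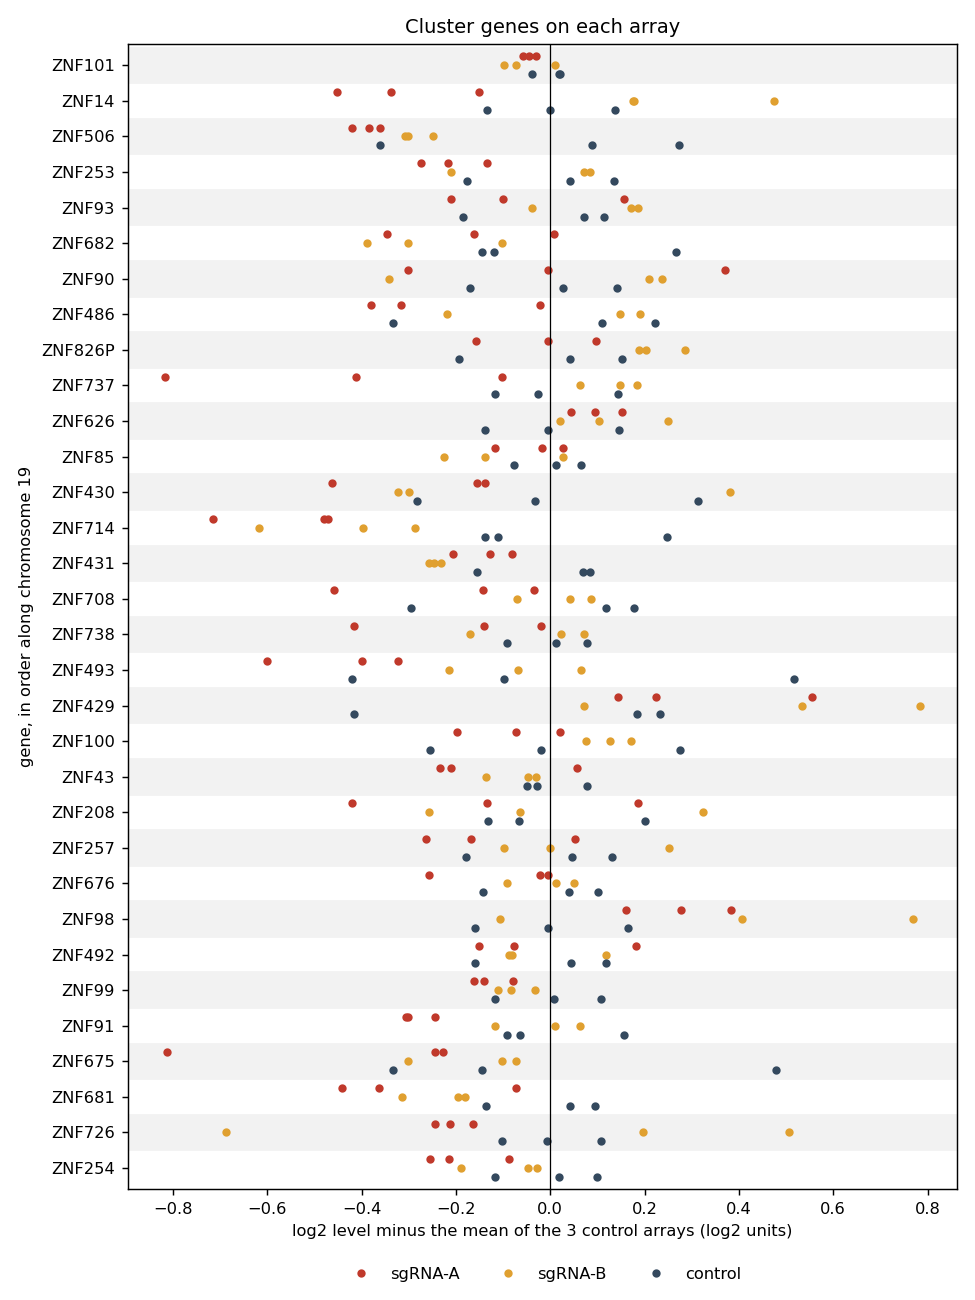
Level of each measured member on each of the 9 arrays as a difference from the mean of the 3 control arrays, in log2 units. Each point is an array, and members run down the page in their order along the cluster. ZNF714 has all points of both guides left of its control points, and ZNF14 has sgRNA-A points to the left and sgRNA-B points to the right of them.

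The first comparison asked how the members stood in sgRNA-A cells against control cells. ZNF714 fell, none rose, and the other 31 did not pass the test. ZNF714, a KRAB zinc finger gene of the middle of the cluster, read 6.46, 6.47 and 6.22 on the sgRNA-A arrays, against 7.19, 6.80 and 6.83 on the control arrays. Every sgRNA-A array lay below every control array. The log2 fold change was -0.55 (SE 0.13, 95% interval -0.83 to -0.28, limma adjusted p = 0.0399), a level 0.681 times that of control. Of all genes tested, 1.22% fell and 0.957% rose in this comparison. The call is near its threshold: it was lost on leaving out any of the 3 sgRNA-A arrays, sgRNA-B replicate 1 or 3, or control replicate 1 or 3, with adjusted p-values from 0.0509 (without sgRNA-B replicate 3) to 0.173 (without control replicate 1). It was also lost when sgRNA-A and control arrays were fitted alone (adjusted p = 0.0662) and without a trended variance prior (adjusted p = 0.0695).

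Most other members leaned the same way with sgRNA-A by less than the test could call. Of 32 log2 fold changes, 28 were below 0 (87.5%), against 48.3% of all genes, and their median was -0.15, against 0.004 over all genes. An unadjusted p below 0.05 was reached by 10 members, all lower, beside 6.74% of all genes lower and 6.68% higher. The sgRNA-A arrays lay below all control arrays for ZNF714, ZNF14, ZNF91 and ZNF726, and above them for none, beside 8.78% of all genes lower and 8.98% higher. The 4 members with a value above 0 were ZNF429 (0.31), ZNF98 (0.27), ZNF626 (0.10) and ZNF90 (0.02).

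The largest sgRNA-A differences after ZNF714 were those of ZNF737, ZNF493, ZNF675 and ZNF506. ZNF737 read 6.00, 5.69 and 5.29 with sgRNA-A, against 6.08, 6.25 and 5.98 in control, a difference of -0.44 (SE 0.15, adjusted p = 0.199). ZNF493 read 4.40, 4.60 and 4.67 with sgRNA-A, against 5.51, 4.90 and 4.58 in control, a difference of -0.44 (SE 0.18, adjusted p = 0.311). In both genes the groups overlapped. ZNF675, known as an inhibitor of TRAF6 signalling, read 6.23, 6.25 and 5.67 with sgRNA-A, against 6.33, 6.96 and 6.14 in control, a difference of -0.43 (SE 0.20, adjusted p = 0.367). Its control replicate 3 lay below the upper pair of sgRNA-A arrays.

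ZNF91, the SVA repressor, read 5.07, 5.13 and 5.06 with sgRNA-A, against 5.31, 5.53 and 5.28 in control. The groups did not overlap, but the difference of -0.28 (SE 0.11, 95% interval -0.52 to -0.05) had an adjusted p of 0.256. ZNF93, the LINE-1 repressor, read 7.81, 7.70 and 8.06 with sgRNA-A, against 7.72, 7.98 and 8.02 in control. Its arrays overlapped, and the difference was -0.05 (95% interval -0.28 to 0.18).

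Further members known from their cloning or earlier study, but not called, lay closer to 0 than ZNF91. With sgRNA-A the differences were -0.13 for ZNF43 (adjusted p = 0.540), -0.04 for ZNF85 (0.896), -0.13 for ZNF257 (0.709), -0.08 for ZNF100 (0.805), -0.21 for ZNF253 (0.412) and -0.19 for ZNF254 (0.335). The corresponding sgRNA-B differences were -0.07, -0.11, 0.05, 0.12, -0.02 and -0.09, with adjusted p-values between 0.529 and 0.963. The sgRNA-A arrays overlapped the control arrays in each of the 6. ZNF254 was among the 10 members with an unadjusted p below 0.05 with sgRNA-A (0.0387 in limma).

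ZNF681, beside ZNF91 and ZNF675 toward the end of the cluster, read 6.77, 7.06 and 6.69 on the sgRNA-A arrays, 6.82, 6.95 and 6.94 on the sgRNA-B arrays and 7.17, 7.23 and 7.00 on the control arrays. Only sgRNA-A replicate 2 reached the lowest control array. The differences were -0.29 with sgRNA-A (SE 0.11, adjusted p = 0.225) and -0.23 with sgRNA-B (SE 0.11, adjusted p = 0.336).

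The dimmest members stayed near the silent level in all groups. ZNF676 read 4.57, 4.32 and 4.56 with sgRNA-A, against 4.68, 4.62 and 4.44 in control, a difference of -0.10 (SE 0.10, adjusted p = 0.754). ZNF708 read 4.11, 4.22 and 3.80 with sgRNA-A, against 4.37, 4.43 and 3.96 in control, a difference of -0.21 (SE 0.12, adjusted p = 0.513). ZNF99 read 3.73, 3.66 and 3.64 with sgRNA-A, against 3.81, 3.91 and 3.69 in control, a difference of -0.13 (SE 0.05, adjusted p = 0.315). The arrays overlapped in all of them. The sgRNA-A differences not given elsewhere were -0.25 for ZNF430, -0.24 for ZNF486, -0.21 for ZNF726, -0.19 for ZNF738 and -0.17 for ZNF682. They also include -0.14 for ZNF431, -0.12 for ZNF208, -0.04 for ZNF101, -0.02 for ZNF826P and -0.01 for ZNF492. None of these reached an unadjusted p below 0.05.

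**Figure D2:**
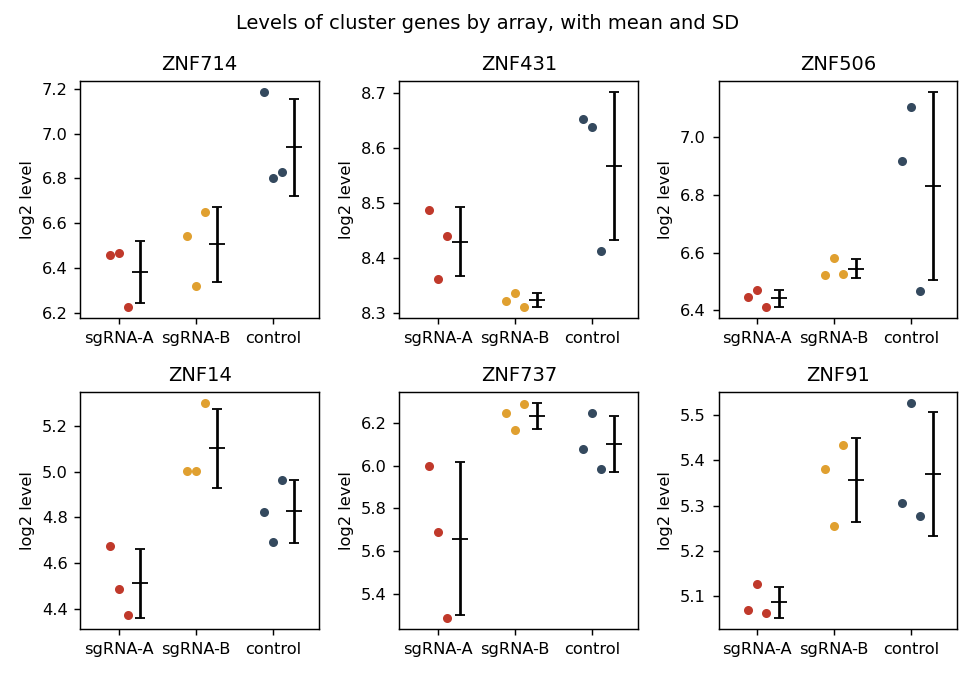
Level of ZNF714, ZNF431, ZNF506, ZNF14, ZNF737 and ZNF91 on each array in log2 units, by group, with points for arrays and bars for the group mean ± SD (n = 3). ZNF714 is lower on all arrays of both guides than on any control array, and ZNF14 is lower with sgRNA-A and higher with sgRNA-B.

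With sgRNA-B no member passed limma's test, and 7 reached an unadjusted p below 0.05, 4 of them lower and 3 higher. Of all genes, 1.51% fell and 1.56% rose, and 7.32% were lower and 7.42% higher at that unadjusted p. The median over the members was -0.02, against -0.004 over all genes, and 18 of the 32 were below 0, against 51.6% of all genes. The sgRNA-B arrays lay below all control arrays for ZNF714, ZNF431 and ZNF681, and above them for ZNF14 and ZNF826P, beside 10.5% of all genes lower and 9.67% higher.

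ZNF714 read 6.54, 6.32 and 6.65 with sgRNA-B, again all below the control arrays, with a difference of -0.43 (SE 0.13, 95% interval -0.71 to -0.16) and an adjusted p of 0.0944. ZNF431, its neighbour along the cluster, read 8.32, 8.34 and 8.31 with sgRNA-B, against 8.65, 8.64 and 8.41 in control. The 3 sgRNA-B arrays lay close together below the control arrays, with a difference of -0.24 (SE 0.07, adjusted p = 0.0858). Without control replicate 3 it was -0.32 and passed (adjusted p = 0.0231). Across all arrays left out singly the difference ranged from -0.32 to -0.20, and no other omission gave a member a call with sgRNA-B.

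ZNF429 had the largest positive value with sgRNA-B, at 6.03, 6.28 and 5.56, against 5.73, 5.68 and 5.08 in control. The groups overlapped, and the difference was 0.46 (SE 0.20, adjusted p = 0.295). ZNF98 read 5.94, 5.58 and 5.06 with sgRNA-B, against 5.16, 5.33 and 5.01 in control, also overlapping, with a difference of 0.36 (SE 0.18, adjusted p = 0.392). ZNF826P, the pseudogene, read 9.81, 9.72 and 9.71 with sgRNA-B, against 9.56, 9.67 and 9.33 in control, a difference of 0.23 (SE 0.08, adjusted p = 0.187).

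ZNF506 depended on which control arrays were included. It read 6.45, 6.47 and 6.41 on the sgRNA-A arrays, 6.52, 6.58 and 6.53 on the sgRNA-B arrays and 6.92, 7.10 and 6.47 on the control arrays. Control replicate 3 lay within the guide arrays and the other control arrays well above them. The differences were -0.39 for sgRNA-A (SE 0.13, adjusted p = 0.189) and -0.29 for sgRNA-B (SE 0.13, adjusted p = 0.339). Without control replicate 3 they were -0.57 (adjusted p = 0.0185) and -0.47 (adjusted p = 0.0376), both past the threshold. These are the far ends of the values on leaving out single arrays. The near ends were -0.25 with sgRNA-A and -0.15 with sgRNA-B.

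Averaging the guides, ZNF714 was again the member that fell: it fell by 0.49 on the log2 scale (adjusted p = 0.0237, 95% interval -0.73 to -0.26), 0.710 times the control level. Of all genes, 1.8% fell and 1.77% rose in this comparison, and 7.68% were lower and 7.28% higher at an unadjusted p below 0.05. Its 3 control arrays lay above all 6 guide arrays, beside 4.18% of all genes lower in this way and 4.08% higher. The call was lost without control replicate 1 (adjusted p = 0.156) or sgRNA-B replicate 2 (adjusted p = 0.0506). The median over members was -0.10, with 25 of 32 below 0, against 49.6% of all genes.

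**Figure D3:**
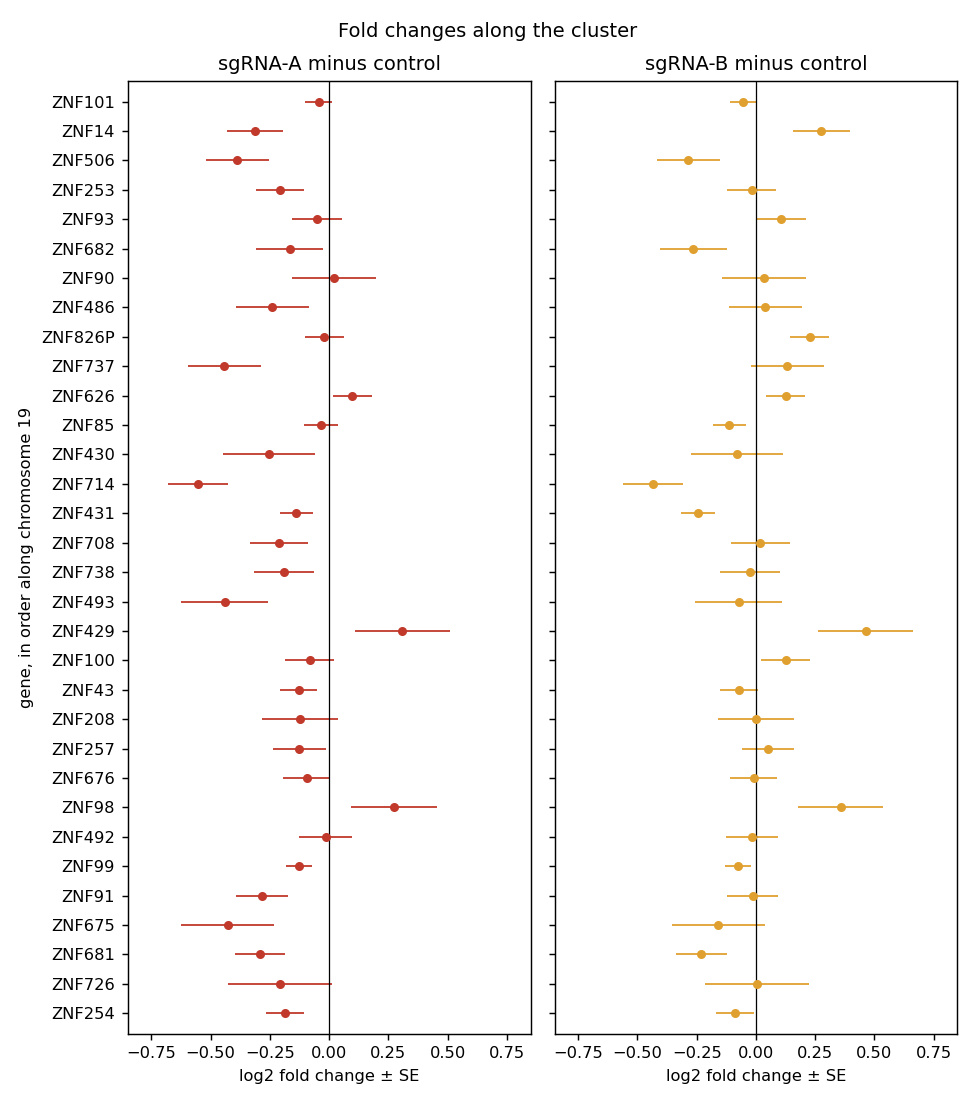
Log2 fold change of each measured member for sgRNA-A and for sgRNA-B against control, with bars of the SE from limma, in cluster order. Of the sgRNA-A values 28 lie left of 0, and the sgRNA-B values lie on both sides; both comparisons use the same control arrays.

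The direct comparison of the guides, sgRNA-A against sgRNA-B, gave no member past the threshold in limma, and 4 with an unadjusted p below 0.05, all lower with sgRNA-A. Of all genes, 0.0627% were called lower and 0.0418% higher, and 5.24% were lower and 5.25% higher at that unadjusted p. The median over members was -0.14, against 0.005 over all genes, and 27 of 32 were below 0, against 47.9% of all genes. The sgRNA-A arrays lay below all sgRNA-B arrays for ZNF14, ZNF506, ZNF826P, ZNF737, ZNF493, ZNF100 and ZNF91, and above them for ZNF431, beside 7.34% of all genes lower and 8.56% higher.

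ZNF14, at the start of the cluster, had the widest gap between the guides. Its mean over the 9 arrays was 4.81, near the silent level of 4.44, and sgRNA-A replicate 3 lay below that level. It read 4.68, 4.49 and 4.38 on the sgRNA-A arrays, 5.00, 5.00 and 5.30 on the sgRNA-B arrays and 4.83, 4.69 and 4.96 on the control arrays. All sgRNA-A arrays lay below the control arrays and all sgRNA-B arrays above them. Each separation taken alone was seen for 8.78% and 9.67% of all genes. The difference of sgRNA-A minus sgRNA-B was -0.59 (SE 0.12, 95% interval -0.85 to -0.33, adjusted p = 0.0965), and those against control were -0.31 with sgRNA-A (adjusted p = 0.250) and 0.28 with sgRNA-B (adjusted p = 0.292).

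ZNF737 read 6.25, 6.17 and 6.29 with sgRNA-B, all above the sgRNA-A arrays given earlier, and the difference of sgRNA-A minus sgRNA-B was -0.58 (SE 0.15, adjusted p = 0.214). ZNF493 read 4.93, 4.78 and 5.06 with sgRNA-B, also above all sgRNA-A arrays, with a difference of -0.37 (SE 0.18, adjusted p = 0.509). ZNF486 differed by -0.28 (SE 0.16, adjusted p = 0.554), with overlapping arrays. ZNF91 differed by -0.27 (95% interval -0.50 to -0.03, adjusted p = 0.411).

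The common level of the members varied from array to array, within groups as well as between them. Relative to the control mean, the median member stood at -0.11, -0.16 and -0.18 on the sgRNA-A arrays, at -0.06, -0.06 and 0.04 on the sgRNA-B arrays, and at 0.03, 0.08 and -0.12 on the control arrays. Control replicate 3 thus lay within the range of the sgRNA-A arrays. It was the lowest array of its group for 21 of the 32 members, and sgRNA-A replicate 3 was the lowest of its own for 18. The median over all genes stayed within 0.01 of 0 on every array. sgRNA-A replicate 3 also had the smallest quality weight, 0.603, among weights of 0.851 to 1.25 for the others, and the part of array quality in the common low values was not tested. Members below 0 with sgRNA-A numbered 25 when sgRNA-A replicate 3 was left out and 27 when control replicate 3 was.

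With sgRNA-A, medians over zinc finger genes outside the cluster lay closer to 0 than the members' median of -0.15. ZNF605 among these genes changed with sgRNA-A by more than ZNF714. Over 205 other ZNF genes of chromosome 19 the median sgRNA-A difference was -0.04, with 60.5% below 0, and 1 rose and none fell. Over 242 ZNF genes of other chromosomes it was -0.01, with 55.8% below 0, and 1 rose and 2 fell. Of all genes, 48.3% were below 0 with sgRNA-A, 0.957% rose and 1.22% fell. The genes called, named after their values were seen, were ZNF850 on chromosome 19 (0.23, adjusted p = 0.0339), and ZNF462 (0.33, adjusted p = 0.0401), ZNF605 (-1.03, adjusted p = 0.00728) and ZNF84 (-0.35, adjusted p = 0.0493) elsewhere. ZNF605 kept its call against control without any single array, while each of the other calls was lost on leaving out any of at least 7 of the 9 arrays in turn. For the mean of both guides, ZNF462 rose (0.31, adjusted p = 0.0188), and ZNF84 (-0.31, adjusted p = 0.0322) and ZNF654 (-0.34, adjusted p = 0.0324) fell. Of all genes, 1.8% fell and 1.77% rose in that limma comparison. Between the guides ZNF605 was called lower with sgRNA-A (-1.05, adjusted p = 0.0386), beside 0.0627% of all genes lower and 0.0418% higher. With sgRNA-B it differed from control by 0.01. The sgRNA-B medians were -0.02 for the 205 and -0.003 for the 242, beside -0.02 for the members and -0.004 for all genes. With sgRNA-B neither the 205 nor the 242 had a gene past the threshold. An unadjusted p below 0.05 in limma was reached by 30 of the 205, 15 lower and 15 higher. It was reached by 28 of the 242, 15 lower and 13 higher. Over all genes 7.32% were lower and 7.42% higher at that p. ZNF729, ZNF728 and ZNF730 are the 3 measured zinc finger genes within the cluster that the list left out. Their sgRNA-A differences were -0.13, -0.21 and -0.19, with a median of -0.19 against -0.15 for the members. None of the 3 passed the test. These are descriptions, and the gap between the sets was not tested.

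Split by promoter words, the members' sgRNA-A medians were -0.15 for the 18 measured members with both words, -0.19 for the 5 with TCCAATCAGG alone and -0.28 for ZNF493 and ZNF257, which lack it. Outside the cluster, 93 genes carry TCCAATCAGG, 34 of them ZNF genes and 25 on chromosome 19. Their 70 measured genes had a median sgRNA-A difference of -0.02, with 40 below 0 (57.1%), against 48.3% of all genes. ERV3-1 fell and none rose, beside 1.22% of all genes that fell and 0.957% that rose. With sgRNA-B the median of the 70 was also -0.02, with 42 below 0 (60.0%), against 51.6% of all genes. Of all genes, 1.51% fell and 1.56% rose with sgRNA-B. ERV3-1 fell again, while the long noncoding RNA OLMALINC rose by 0.83 (SE 0.17, adjusted p = 0.0168) and TMEM108 rose by 0.29 (SE 0.07, adjusted p = 0.0491). OLMALINC's call was lost without sgRNA-B replicate 1 or 2 or control replicate 3, and TMEM108's without any array other than sgRNA-A replicate 3. TMEM108 lay below the silent level on all 9 arrays.

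The partners of these proteins were followed through a list of KRAB silencing genes, 26 of 29 measured. All 26 lay above the silent level. None of them passed the test for sgRNA-A in limma, where 1 was lower and 1 higher at an unadjusted p below 0.05. With sgRNA-B 4 were lower and 3 higher at that p, and between the guides 1 was lower and 4 higher with sgRNA-A and none passed. Over all genes 6.74% were lower and 6.68% higher with sgRNA-A at that p, 7.32% and 7.42% with sgRNA-B, and 5.24% and 5.25% between the guides. With sgRNA-B only ATRX, a chromatin remodeller, passed, reading 7.64, 7.69 and 7.65 with sgRNA-B, against 8.00, 8.01 and 7.89 in control. All sgRNA-B arrays lay below the control arrays, and ATRX fell by 0.31 (SE 0.07, adjusted p = 0.0231). The call was lost without any sgRNA-B array or without control replicate 1 or 2, with adjusted p-values of 0.0587 to 0.0956. With sgRNA-A, ATRX read 7.72, 7.82 and 7.71, a difference of -0.22 (adjusted p = 0.129).

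TRIM28, the co-repressor, read 11.21, 11.30 and 11.29 on the sgRNA-A arrays, 11.17, 11.02 and 11.10 on the sgRNA-B arrays and 11.22, 11.00 and 11.22 on the control arrays. The arrays of each guide overlapped the control arrays. The differences from control were 0.12 with sgRNA-A (adjusted p = 0.398) and -0.05 with sgRNA-B (adjusted p = 0.794). Every sgRNA-A array lay above every sgRNA-B array, as for 8.56% of all genes. The difference of sgRNA-A minus sgRNA-B was 0.17 (SE 0.06, limma adjusted p = 0.342). SETDB1, the methyltransferase, differed by 0.02 with sgRNA-A (adjusted p = 0.956) and by 0.04 with sgRNA-B (adjusted p = 0.870).

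Of 12 measured genes on a list of retroviral envelope and retroelement-derived genes, 5 lay above the silent level. ERV3-1 and PEG10 fell with each guide and none rose, beside 1.22% of all genes lower with sgRNA-A and 1.51% with sgRNA-B. ERV3-1, an endogenous retrovirus envelope gene on chromosome 7, read 6.46, 6.28 and 6.00 on the sgRNA-A arrays, 6.33, 6.46 and 6.11 on the sgRNA-B arrays and 7.11, 6.93 and 6.93 on the control arrays. All guide arrays lay below all control arrays. It fell by 0.74 with sgRNA-A (SE 0.13, adjusted p = 0.00915), and for the other guide by 0.69 with sgRNA-B (SE 0.13, adjusted p = 0.0101). Without control replicate 1 the adjusted p-values were 0.0545 and 0.0558. RefSeq's table gives ERV3-1 a pair of promoters: TCCAATCAGG is in the one at chr7:65006638-65006937 and not in the one at chr7:64999393-64999692, and CTGTCACTCA is in neither.

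PEG10, an imprinted gene derived from a retrotransposon, read 11.12, 11.13 and 11.01 on the sgRNA-A arrays, 11.16, 11.09 and 11.08 on the sgRNA-B arrays and 11.32, 11.29 and 11.34 on the control arrays. All guide arrays again lay below the control arrays. PEG10 fell by 0.23 with sgRNA-A (adjusted p = 0.0103) and by 0.20 with sgRNA-B (adjusted p = 0.0146). Without control replicate 1 the adjusted p-values were 0.0525 and 0.0625, and for sgRNA-B the call was also lost without sgRNA-B replicate 2 or 3 or control replicate 3. Without a trended variance prior they were 0.0576 and 0.0694. ERVV-2, a further envelope gene, read 6.36, 5.71 and 6.22 with sgRNA-B, against 5.77, 5.34 and 5.63 in control. The groups overlapped, and the difference of 0.52 (SE 0.17) had an adjusted p of 0.150. The array holds gene transcripts, and the retroelements that members bind were not measured here.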

How the data were processed

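The values analysed are log2 expression levels per probe set that the authors deposited for 9 arrays. They were made with RMA, per the submitters' processing notes (version not given in the sources used here), which equalises array distributions, so a shift of all genes together cannot be seen. Of 24733 probe sets, 23934 had 1 gene symbol, 0 several and 799 none; where several probe sets shared a symbol (3 symbols) the brightest was kept, leaving 23931 genes. RefSeq (GRCh38.p14) gave names, gene order and promoters, and 23893 probe set numbers matched it.

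limma 3.58.1 (R 4.3.3) fitted group means over all 9 arrays with a trended prior (6 residual and 7.27 prior degrees of freedom), with Benjamini-Hochberg adjustment over all genes and a threshold of 0.05. The code was tested on simulated data. No dim genes were removed. Alternatives left out each array, blocked on replicate number, and changed the variance prior, array weights, dim filter, groups fitted and scaling. Samples were grouped by title. Named are members past the threshold, the 4 with the largest differences per comparison, 8 known from the literature, the 3 brightest and 3 dimmest, and genes of the lists past the threshold. Called ZNF genes outside the cluster, called carriers of the promoter word, ERVV-2 and IPO5P1 were named after their values were seen. ERV3-1's promoter was looked at after its values were seen. The members and lists were chosen with earlier results of these data known. Same-numbered arrays deviated together with correlations of -0.15 to 0.14, so numbers were not taken as pairs.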

Additional observations from a re-analysis of the deposited data

Results flagged for a closer look

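ZNF14 was flagged, from these values themselves, for its order across the groups. Over all genes, sgRNA-A arrays lay below the control arrays for 8.78% and sgRNA-B arrays above them for 9.67%. The share with both at once is not given here. In ZNF14 all 3 sgRNA-A arrays lay below the control arrays and all 3 sgRNA-B arrays above them. The difference of sgRNA-A minus sgRNA-B was -0.59 (SE 0.12), and the direct limma comparison gave an adjusted p of 0.0965, which misses the threshold. Leaving out single arrays gave differences of -0.67 to -0.49. ZNF14 lay near the silent level, with sgRNA-A replicate 3 below it, and what lies behind its order was not tested.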

How the results depend on the processing

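The count of members called with sgRNA-A was 1, and 0 without a trended variance prior or with the compared groups alone. With the compared groups alone the genes called numbered 321 and not 522. Fewer arrays then estimate the spread, and whether this lowered the count was not tested. Leaving out single arrays gave 0 to 1 members called with sgRNA-A, and without control replicate 3 that member was ZNF506 and not ZNF714. Leaving out single arrays also gave 0 to 2 members with sgRNA-B, 0 between the guides and 0 to 3 for the mean of both guides. Genes called then ranged from 223 to 435 with sgRNA-A (522 with all arrays), 353 to 735 with sgRNA-B (735), 6 to 30 between guides (25) and 405 to 767 for the mean (855). The members' median ranged from -0.20 to -0.13 with sgRNA-A, from -0.06 to 0.03 with sgRNA-B, from -0.15 to -0.087 between guides and from -0.13 to -0.05 for the mean. Members below 0, a count added after the data were seen, ranged from 25 to 28, 14 to 22, 25 to 27 and 23 to 26 in the same order. With the replicate block, 465 genes were called with sgRNA-A, 684 with sgRNA-B, 34 between guides and 798 for the mean, with 1, 0, 0 and 1 members; 6 of 9 arrays were closest to an array of their own number. No direction of a called value reversed under any setting run, which also covered array weights, removing the dimmest 30% of genes, quantile normalization again and centring each array. The limits are 1 clone per guide, 3 arrays per group and replicate spread among members wider than over all genes.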

Other observations

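Of 14 measured genes of other kinds within the cluster, chosen after the data were seen, 3 lay above the silent level. None passed the test in limma in any comparison, and their median with sgRNA-A was 0.009. IPO5P1, a pseudogene, read 6.28, 5.93 and 5.54 with sgRNA-A, against 5.62, 5.50 and 5.35 in control, a difference of 0.43 (SE 0.16, adjusted p = 0.241), and was the gene of the 14 with an unadjusted p below 0.05. None reached that p with sgRNA-B, and 4 did between the guides, 3 higher and 1 lower with sgRNA-A. None of the 10 protein-coding neighbours before the cluster passed with either guide, and 2 had an unadjusted p below 0.05 with each, all lower. Over all genes, 6.74% were lower and 6.68% higher with sgRNA-A at that p. These shares were 7.32% and 7.42% with sgRNA-B, and 5.24% and 5.25% between the guides. Of the 10 after the cluster, 1 fell with sgRNA-B, beside 1.51% of all genes. This gene, CCNE1, which encodes cyclin E1, read 9.90, 9.99 and 10.06 with sgRNA-B, against 10.23, 10.19 and 10.16 in control. It fell by 0.21 (SE 0.05, adjusted p = 0.0467), a call lost on leaving out sgRNA-A replicate 2 or 3, sgRNA-B replicate 1 or 2, or any control array, with the replicate block, with the compared groups alone and without a trended variance prior. With sgRNA-A it read 10.06, 9.97 and 9.94, a difference of -0.20 (adjusted p = 0.0643).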
